A study of Homo sapiens with 15 samples.

Results

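Deubiquitinases are proteases that take ubiquitin off other proteins, and so decide whether a tagged protein is degraded, moved or signals. Most are cysteine proteases of the USP, UCH, OTU and MJD families, and the JAMM family are zinc metalloproteases. WP1130, also called degrasyn, is a small molecule that inhibits the activity of the deubiquitinases USP9X, USP5, USP14, UCHL1 and UCHL5 without acting on all others. VCaP is a prostate cancer cell line from a metastasis that carries the TMPRSS2-ERG fusion, and USP9X is known to take ubiquitin off the ERG protein. The arrays measure mRNA, so they show neither enzyme activity nor protein.

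The members were the symbols of the array's probe annotation that begin with USP and a digit, UCHL and a digit, OTUD, OTUB, JOSD or ATXN3, with 7 further genes of the same families, STAMBP, STAMBPL1, BRCC3, CYLD, YOD1, VCPIP1 and ZRANB1. Of 84 such symbols, 60 had a probe with a detection p-value under 0.05 on at least 3 of the 15 arrays, out of 12744 genes that met this filter. The 60 were 41 USP, 10 OTU, 3 UCH, 3 MJD and 3 JAMM members. Of these, 46 were detected on all 15 arrays. The 24 symbols that did not pass included 8 USP17L copies, and 16 of the 24 were detected on 0 arrays. Just inside the threshold stood USP35, detected on 3 arrays, and just outside it stood USP19 and USP28, each detected on 2. The others that did not pass were ATXN3L, OTUD4, OTUD6A, OTUD7A, USP20, USP26, USP27X, USP29, USP31, USP32P1, USP32P2, USP43, USP50 and USP6. The name rule also took in USP6NL, which encodes a GTPase-activating protein and no deubiquitinase, OTUD6B-AS1, an antisense RNA, and USP17L28, one of many near-identical copies that a probe may not tell apart. Without those 3, 57 members remained.

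RNA of VCaP cells was hybridised to 15 Illumina HumanHT-12 v4 arrays, 3 for each of 5 groups. All 5 groups used the same line. Cells of 2 groups received ERG siRNA 1 or ERG siRNA 2 for 72 h, beside a non-targeted siRNA as control. Cells of another group received WP1130 for 24 h, beside DMSO as control. The sources used here do not state the times of either control group or the dose of WP1130. Levels are log2 normalised intensities. A change is a log2 difference between group means, printed ± SE, and it was called where its limma p-value, adjusted over all 12744 genes, was under 0.05. A level is comparable between arrays for 1 gene, not between genes.

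Arrays detected 18460 to 21220 of 47322 probes. Replicates correlated at 0.993 to 0.997, and 0 pairs of arrays were identical. ERG itself fell by 0.74 ± 0.16 with the siRNAs (adjusted p = 0.00383) and by 0.54 ± 0.18 with WP1130 (adjusted p = 0.0203). Of 8 luminal prostate markers 6 were measured, each detected on 15 arrays, while 0 of 4 basal markers passed the filter. With WP1130, KRT8 (1.12) and KRT18 (0.71) rose and the other 4 luminal markers fell, and with ERG siRNA 5 of the 6 rose. Of other cell types, 4 of 5 fibroblast markers (2 fell with WP1130) and 1 of 4 blood markers, CD68 (1.71 with WP1130), were measured. The part of these shifts in the results below was not tested. The mean raw intensity of the WP1130 arrays was 74.6% of that of the DMSO arrays. Without scaling between arrays, the median change of all genes with WP1130 was -0.65, against -0.12 after quantile normalisation, so changes below are relative to that common distribution. In such bulk samples, fewer cells of a type and less RNA per cell cannot be told apart.

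The first comparison asked how WP1130 moved the mRNA of its own targets. UCHL1 mRNA rose to 210% of the DMSO level, USP14, USP9X and USP5 fell, and UCHL5 did not pass the test. All 5 were detected on 15 of 15 arrays.

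UCHL1, a ubiquitin hydrolase abundant in neurons, read 8.92, 9.001 and 8.94 on the DMSO arrays and 10.06, 10.03 and 9.97 on the WP1130 arrays. Each WP1130 array lay above every other array, where the 9 siRNA arrays ranged from 9.05 to 9.29. The rise was 1.07 ± 0.08 (adjusted p = 1.30e-08), or 210% of the DMSO level with a 95% interval of 187 to 235%. It was 0.49 under median scaling (adjusted p = 0.000575) and 0.30 without scaling (adjusted p = 0.0360). As UCHL1 is also used as a neuroendocrine marker, that list was read beside it: of its 4 genes, INSM1 changed by -0.47 and CHGA by -0.30, both called, and SYP and NCAM1 were not called.

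USP14, which trims ubiquitin chains at the proteasome, read 8.75, 8.41 and 8.50 with DMSO and 7.77, 7.78 and 7.86 with WP1130. No WP1130 array reached the lowest value of any other group, 8.29. It fell by 0.75 ± 0.10 (adjusted p = 1.00e-05), to 59.5% of the DMSO level. Its second probe gave -0.64. Under median scaling the change was -1.34 and without scaling -1.53.

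USP9X read 9.47, 9.69 and 9.60 with DMSO and 9.16, 9.22 and 9.23 with WP1130. The groups did not overlap. It fell by 0.38 ± 0.10 (adjusted p = 0.00331), to 76.7% of the DMSO level with a 95% interval of 66.4 to 88.6%. The size rested on the scaling, as the change was -0.99 under median scaling and -1.18 without scaling. Both its probes fell, but by unequal amounts: the second gave -1.26 ± 0.11. USP9Y, the Y-linked paralogue, fell by 0.61 ± 0.11 (adjusted p = 0.000248), and a probe for one paralogue may bind the other's transcript.

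USP5, which dismantles free ubiquitin chains, read 9.47, 9.40 and 9.29 with DMSO and 9.25, 9.14 and 9.001 with WP1130. The lowest DMSO array lay just above the highest WP1130 array. It fell by 0.26 ± 0.09 (adjusted p = 0.0197). That call was lost without DMSO replicate 1 (-0.22, adjusted p = 0.0768), DMSO replicate 2 (-0.25, adjusted p = 0.0517) or WP1130 replicate 3 (-0.19, adjusted p = 0.0963). It was also lost with the non-targeted siRNA arrays as the control (-0.15, adjusted p = 0.145). Under median scaling it was -0.87 and without scaling -1.07.

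UCHL5, a deubiquitinase held on the proteasome by ADRM1, read 8.25, 8.29 and 8.39 with DMSO and 8.11, 8.34 and 8.48 with WP1130. Its change was 0.00 ± 0.09 (adjusted p = 0.973), with a 95% interval of -0.18 to 0.19. The groups overlapped. Its value was negative under the other scalings, -0.59 under median scaling and -0.78 without scaling. Without scaling this was a called fall (adjusted p = 3.19e-06), where the median change of all genes was -0.65.

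**Figure D1:**
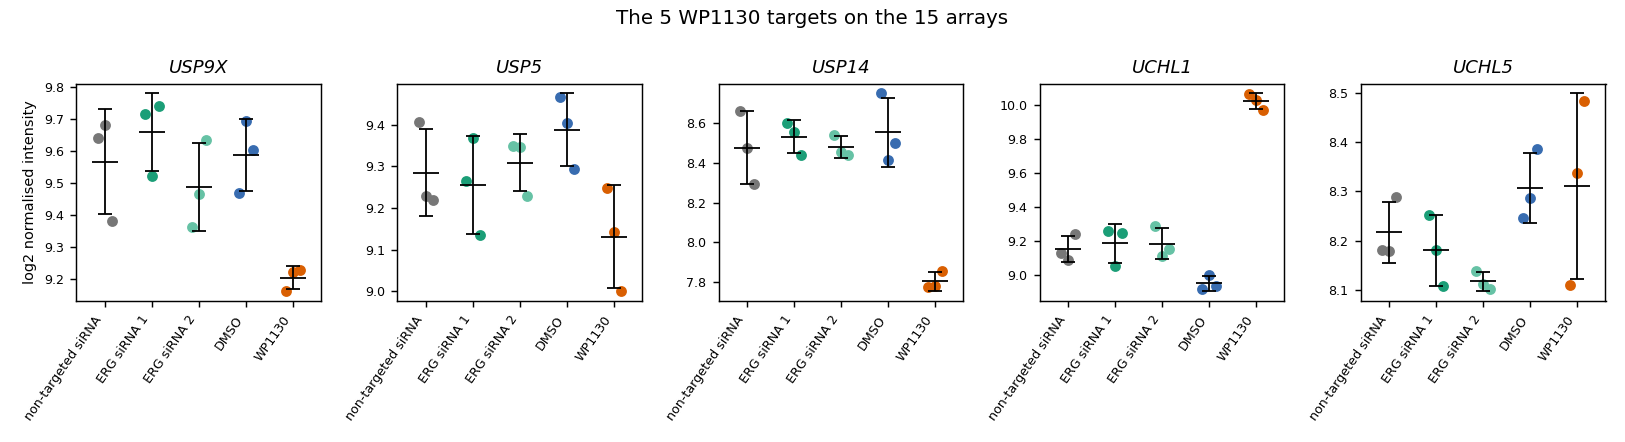
The 5 WP1130 targets, 1 panel each, with log2 normalised intensity on the vertical axis. Points are the 3 arrays of each group and bars are the mean ± SD. UCHL1 is higher on the WP1130 arrays than on any other, USP14 and USP9X are lower, and UCHL5 overlaps DMSO.

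The targets were then set against the rest of the family. Their median change was -0.26, against -0.17 for the other 55 members, a difference of -0.09. Taken for each WP1130 array against the DMSO mean, this difference ran from -0.25 to -0.06 (SD 0.10, n = 3). No test was made of it. With either other scaling it was -0.29.

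Over all members, WP1130 moved deubiquitinase mRNA in both directions, with more falls than rises. Of the 60, 13 rose and 25 fell, 63.3%, where 59.0% of all genes were called, 21.9% up and 37.1% down. That share lies close to the background. The split depended on scaling: 4 up and 48 down without scaling, 6 up and 41 down under median scaling, while all genes went from 37.1% of calls upward to 10.6% and 15.7%. All 25 falls kept their call under both. Both settings lowered the median change of all genes, to -0.65 without scaling and -0.46 under median scaling, so that does not test them. Among the 13 rises 7 kept their sign. All 13 rises stayed above the median of all genes and all 25 falls stayed below it. A shift shared by all genes drops out of that comparison, so it does not test the calls either. For USP1 and USP51 the WP1130 and DMSO arrays overlapped although both were called. Changes of at least 1.5-fold were seen for 18 members, 30.0%, against 24.1% of all genes. Changes of at least 2-fold were seen for 4 of the 60 members, against 1104 of the 12744 genes.

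**Figure D2:**
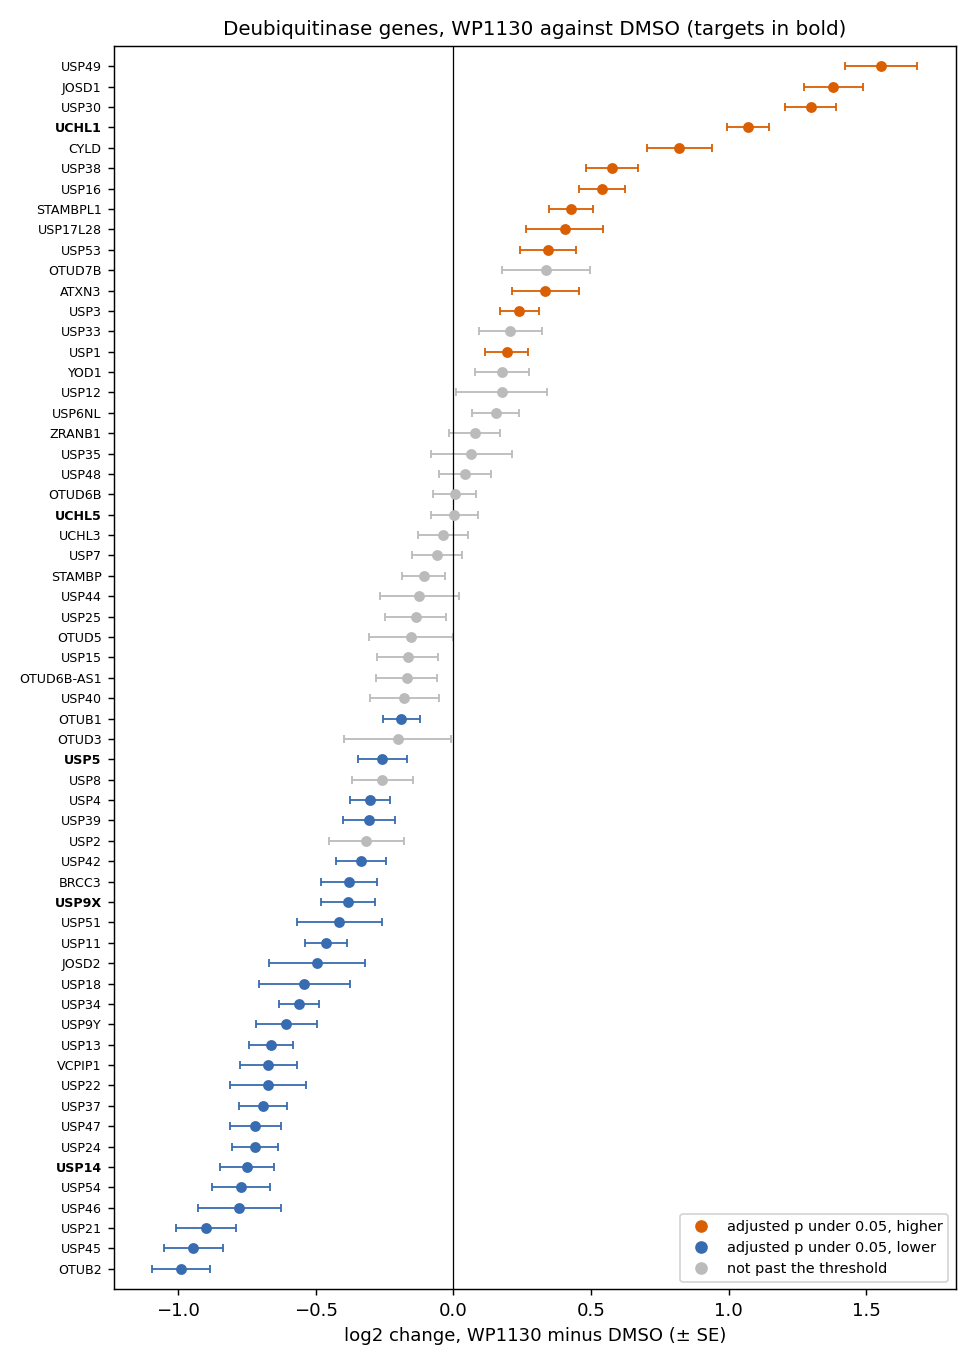
Change of each of the 60 members with WP1130, as log2 difference from DMSO on the horizontal axis with bars of ± SE. Orange marks the 13 members that rose, blue the 25 that fell and grey those not past the threshold, with target names in bold; 4 members lie beyond 1 to the right.

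By family, the USP members had 9 rises and 20 falls of 41, with a median of -0.26. Of all genes 21.9% were called up and 37.1% down, with a median change of -0.12. Of 10 OTU members 3 fell and 0 rose by limma, and the same 3 had an unadjusted p under 0.05. In the UCH family only UCHL1 was called. MJD members split into 2 rises, JOSD1 and ATXN3, and 1 fall, JOSD2, and JAMM members into 1 rise, STAMBPL1, and 1 fall, BRCC3. No test was made between families.

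The 4 largest rises were USP49, JOSD1, USP30 and UCHL1. USP49, a deubiquitinase of histone H2B, read 8.40, 8.14 and 7.96 with DMSO and 9.75, 9.71 and 9.70 with WP1130, a rise of 1.55 ± 0.13 (adjusted p = 8.44e-08). The WP1130 arrays were the highest of all, and the DMSO arrays the lowest. On the 9 siRNA arrays it read 9.08 to 9.58. Against the non-targeted siRNA arrays, a control chosen after the data were seen, the rise was only 0.42 (adjusted p = 0.0113). Against DMSO it was 0.98 under median scaling and 0.79 without scaling, both called.

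JOSD1, a membrane-associated Josephin-domain deubiquitinase, read 7.72, 7.72 and 7.78 with DMSO and 8.84, 9.19 and 9.32 with WP1130. It rose by 1.38 ± 0.11 (adjusted p = 3.11e-08), to 260% of DMSO. The rise was 0.79 under median scaling and 0.60 without scaling, both called. No other array exceeded 8.06, and against the non-targeted siRNA arrays the rise was 1.21.

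USP30 sits in the outer mitochondrial membrane and opposes the tagging of mitochondria by parkin. It read 5.65, 5.55 and 5.54 with DMSO and 6.87, 6.99 and 6.77 with WP1130, a rise of 1.30 ± 0.09 (adjusted p = 1.06e-08). The highest value in any other group was 6.01. The rise was 0.87 under median scaling and 0.68 without scaling, both called, and 1.27 against the non-targeted siRNA arrays.

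CYLD, which cuts Lys63-linked and linear chains and restrains NF-kB signalling, rose by 0.82 ± 0.12 (adjusted p = 2.47e-05), from 6.11, 5.91 and 5.87 to 6.63, 6.79 and 6.94. The call was lost without scaling, at 0.20 (adjusted p = 0.197). USP38 rose by 0.58 and USP16, a histone H2A deubiquitinase, by 0.54, but under median scaling they read -0.01 and -0.02 and without scaling -0.20 and -0.21. For USP16 the 3 probes ranged from 0.21 to 0.91.

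STAMBPL1, a Lys63-specific enzyme of endosomes, rose by 0.43 ± 0.08 (adjusted p = 0.000297). It read -0.16 under median scaling and -0.35 without scaling, the latter a called fall (adjusted p = 0.0126). Its rise was also not called against the non-targeted siRNA arrays (0.09, adjusted p = 0.328). ATXN3, whose expanded form causes Machado-Joseph disease, rose by 0.33, and turned to -0.16 under median scaling and -0.35 without scaling. The value without scaling was a called fall (adjusted p = 0.0336). The histone H2A enzyme USP3 rose by 0.24 and USP1, which acts on FANCD2 and PCNA, by 0.19. Both turned negative under either scaling, to -0.37 and -0.40 with the median and -0.56 and -0.59 with none. With none, both were called falls (adjusted p = 0.000243 and 0.000232). USP1 also depended on the probe, since its second probe fell by 1.49 ± 0.11 (adjusted p = 1.65e-08). USP17L28 at 0.40 and USP53 at 0.34 complete the 13. USP17L28 lost its call under median scaling (0.28, adjusted p = 0.0729) and without scaling (0.09, adjusted p = 0.564), and USP53 without scaling (0.06, adjusted p = 0.637). Against the non-targeted siRNA arrays neither passed (0.25 and 0.13).

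The largest fall was that of OTUB2, an OTU-family enzyme, from 6.17, 5.91 and 5.98 with DMSO to 5.22, 4.90 and 4.98 with WP1130. Every other array was at 5.71 or above. It fell by 0.99 ± 0.10 (adjusted p = 9.13e-07), to 50.4% of DMSO. Its probe was detected on 2 of 3 WP1130 arrays.

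USP45, which acts on the DNA repair nuclease subunit ERCC1, read 5.62, 5.79 and 5.68 with DMSO and 4.79, 4.52 and 4.95 with WP1130. It changed by -0.95 ± 0.11 (adjusted p = 2.15e-06), and 1 of the 3 WP1130 arrays detected it, so most of its WP1130 levels lie at the detection limit. USP21, another histone H2A deubiquitinase, changed by -0.90 ± 0.11 (adjusted p = 4.37e-06). All 3 of its probes were lower, by -0.47 to -0.90.

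Next came USP46 at -0.78 and USP54 at -0.77. USP46 is switched on by WDR48, and WDR48 mRNA changed by -0.58 as well. USP24 (-0.72), USP47 (-0.72), USP37 (-0.69), USP22 (-0.67), VCPIP1 (-0.67), USP13 (-0.66) and USP34 (-0.56) followed. Of these, USP22 is the ubiquitin protease of the SAGA transcription complex, VCPIP1 works with the ATPase p97 in Golgi reassembly, and USP37 stabilises cyclin A. For each of those 7 members the WP1130 arrays lay below all DMSO arrays. They were named because they were called falls, and the share of all genes without overlap was not computed, so nothing is read from this.

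The smaller falls were USP18 (-0.54), which removes the ubiquitin-like ISG15, JOSD2 (-0.49), USP11 (-0.46), USP51 (-0.41), BRCC3 (-0.38), USP42 (-0.33), USP39 (-0.31), USP4 (-0.30) and OTUB1 (-0.19). USP39 is a splicing factor without protease activity. BRCC3 is the Lys63-specific enzyme of the BRCA1-A and BRISC complexes. Its direction rested on the control, since against the non-targeted siRNA arrays it was 0.05.

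Of the 38 calls, 28 held without each array in turn. The 10 that did not were of mixed size, as USP18, JOSD2 and USP51 changed more than USP9X and USP4, which held. USP5 is given above. ATXN3 was lost without DMSO replicates 2 or 3 or WP1130 replicates 2 or 3 (0.24 to 0.34), USP1 without DMSO replicates 1 or 2 or WP1130 replicates 2 or 3 (0.12 to 0.20), and USP17L28 without DMSO replicates 1 or 3 or WP1130 replicates 2 or 3 (0.36 to 0.40). USP3 was lost without WP1130 replicate 3 (0.17). JOSD2 was lost without DMSO replicates 1 or 3 or WP1130 replicate 3 (-0.47 to -0.31), and USP51 without DMSO replicates 1 or 2 or WP1130 replicates 1 or 3 (-0.40 to -0.23). OTUB1 and USP39 were lost without DMSO replicate 3 (-0.16 and -0.23) or WP1130 replicate 2 (-0.18 and -0.22), and USP18 without WP1130 replicate 2 (-0.44).

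The remaining 22 members did not pass the test, and the half-widths of their 95% intervals ran from 0.16 to 0.42. Among them were USP7, known for acting on p53 and MDM2 (-0.06), STAMBP (-0.11), UCHL3 (-0.04), YOD1 (0.18) and ZRANB1 (0.08). USP2 (-0.32, adjusted p = 0.0583) and USP8 (-0.26, adjusted p = 0.0576) came nearest to the threshold.

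**Figure D3:**
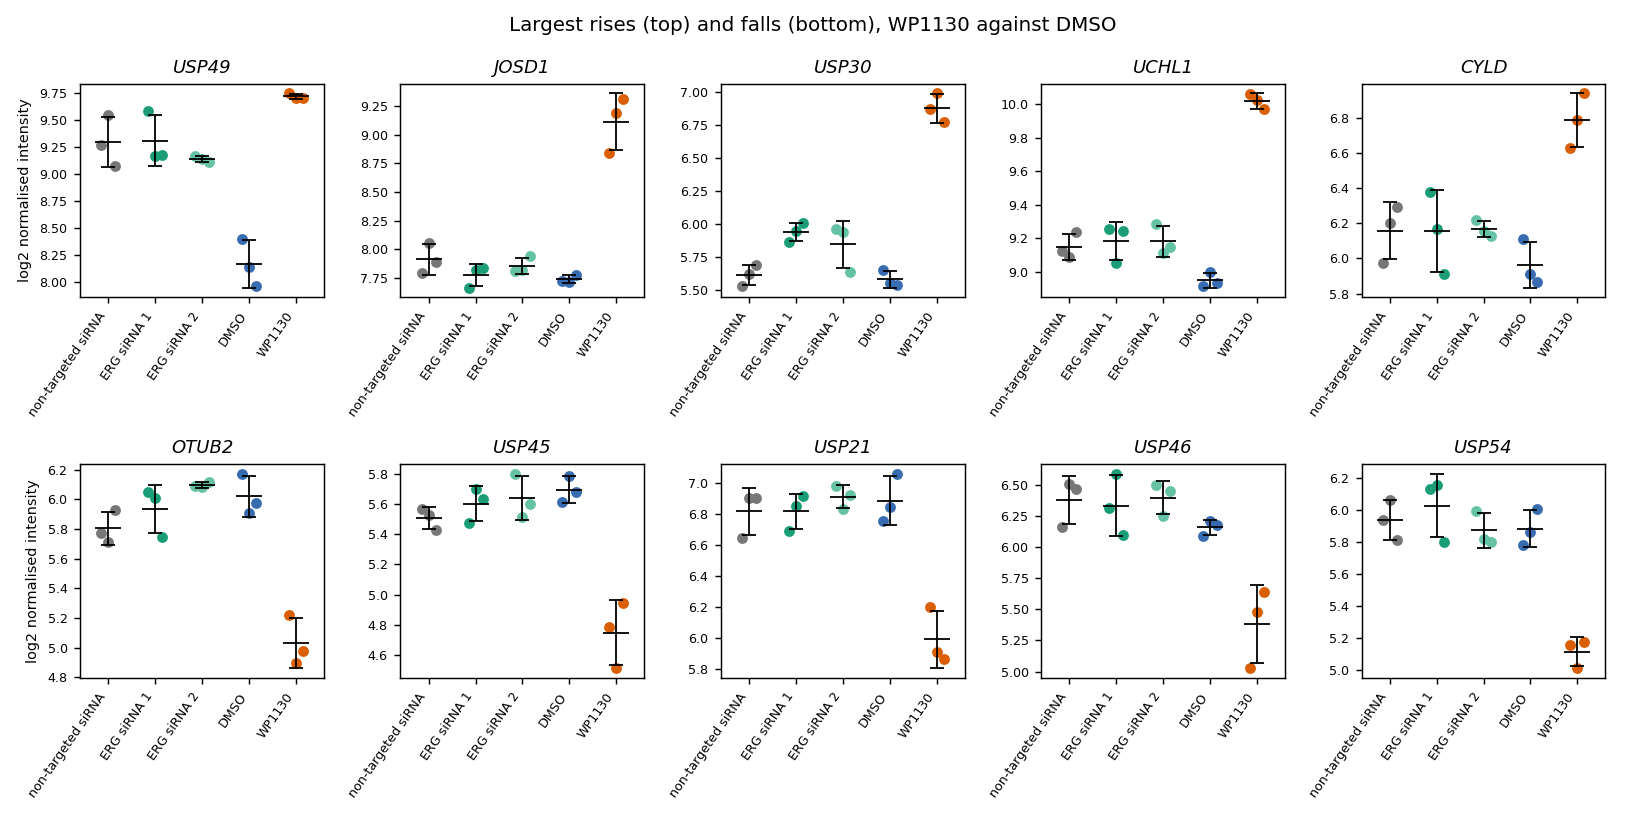
Members with the 5 largest rises (upper row) and 5 largest falls (lower row) with WP1130, with log2 normalised intensity on the vertical axis. Points are arrays and bars the mean ± SD of 3. The WP1130 arrays stand apart from all others in each panel, while USP49 is also low on the DMSO arrays, at 7.96 to 8.40.

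Promoter sequence is shown for the largest fall and for JOSD1, USP30 and UCHL1, the members with the largest rises after USP49, whose rise was much smaller against the other control; the USP49 window matched none of the motifs below. Each is the 250 bases before a RefSeq start of the gene in GRCh38.p14, 5′ to 3′ on the gene's strand, and capitals mark a motif match. JOSD1 lies at chr22:38700944-38701193 on the minus strand, USP30 at chr12:109052326-109052575 on the plus strand, UCHL1 at chr4:41256678-41256927 on the plus strand and OTUB2 at chr14:94026090-94026339 on the plus strand. JOSD1 and USP30 have 2 starts in the table, and the one with more matches is shown.
JOSD1: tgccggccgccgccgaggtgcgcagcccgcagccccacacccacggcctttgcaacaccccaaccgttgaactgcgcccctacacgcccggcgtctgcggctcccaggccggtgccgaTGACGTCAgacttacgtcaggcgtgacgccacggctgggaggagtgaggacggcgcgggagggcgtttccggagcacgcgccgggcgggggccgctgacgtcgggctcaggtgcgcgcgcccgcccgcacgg
USP30: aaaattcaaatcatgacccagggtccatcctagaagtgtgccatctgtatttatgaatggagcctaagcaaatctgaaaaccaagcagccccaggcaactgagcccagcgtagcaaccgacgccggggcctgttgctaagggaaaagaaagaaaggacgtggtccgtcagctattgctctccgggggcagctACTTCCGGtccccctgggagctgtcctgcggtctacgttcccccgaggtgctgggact
UCHL1: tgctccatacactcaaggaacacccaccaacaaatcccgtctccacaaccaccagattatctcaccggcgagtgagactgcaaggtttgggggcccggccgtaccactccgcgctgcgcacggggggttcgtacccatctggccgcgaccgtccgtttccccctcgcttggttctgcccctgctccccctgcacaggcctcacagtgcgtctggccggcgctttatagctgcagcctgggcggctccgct
OTUB2: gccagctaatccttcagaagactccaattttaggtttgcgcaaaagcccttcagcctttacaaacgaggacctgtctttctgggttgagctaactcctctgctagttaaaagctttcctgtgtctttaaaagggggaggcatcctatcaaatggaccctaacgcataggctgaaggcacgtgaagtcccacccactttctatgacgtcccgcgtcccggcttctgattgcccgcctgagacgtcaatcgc

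Both strands were searched for the cAMP response element TGACGTCA, the heat shock element pair GAANNTTC, the CEBP-ATF response element TGATGNAA, the antioxidant response element TGACNNNGC, the AP-1 site TGANTCA and the ETS site CCGGAAGT. The JOSD1 window held 1 cAMP response element, 132 bases before the start, and USP30 held 1 ETS site on the opposite strand, 58 bases before the start. UCHL1 and OTUB2 matched none of the 6. Of 45 members with a window, 2 held the cAMP response element, JOSD1 and CYLD, where 1.65% of all 35116 windows held it. Several starts give a gene several windows, so members are better set against genes, of which 2.03% held it. The shares of genes for the other motifs were 7.05% for the heat shock element pair, 3.89% for the CEBP-ATF response element, 13.2% for the antioxidant response element, 8.06% for AP-1 and 4.13% for ETS, and of windows 5.78%, 3.14%, 10.9%, 6.57% and 3.42%. Among the 45 members, 1, 1, 11, 3 and 6 held these, in the same order. The AP-1 motif and the cAMP response element share bases, and a match is no evidence of binding.

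The knockdown arms asked whether less ERG moves the same genes. ERG siRNA changed few of them: 2 members rose and 3 fell of 60, 8.33% (3 in all without non-targeted replicate 1), where 20.2% of all genes were called, 10.7% up and 9.58% down. No member changed by 1.5-fold, as 2.93% of all genes did, and none of the 5 WP1130 targets was called. At an unadjusted p under 0.05 there were 14 members and 0 targets, against 4045 of 12744 genes. USP51 had a larger positive value than either called rise, 0.39 ± 0.13, and just missed the threshold (adjusted p = 0.0521). It passed under median scaling (0.46, adjusted p = 0.0176) and without scaling (0.44, adjusted p = 0.0282), and its second probe, detected on 4 arrays, gave 0.46 (adjusted p = 0.000765).

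STAMBPL1 had the largest change, from 8.56, 8.54 and 8.55 with the non-targeted siRNA to 8.04, 7.95 and 8.03 with ERG siRNA 1 and 7.98, 8.13 and 8.17 with ERG siRNA 2. No knockdown array reached the control. It fell by 0.50 ± 0.07 over both siRNAs (adjusted p = 0.000108), to 70.8% of the control with a 95% interval of 63.9 to 78.4%. It was the only member called by each siRNA in every scaling. The DMSO arrays, which received no ERG siRNA, read 8.22, 8.11 and 8.31 and so also lay below the non-targeted arrays.

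USP4 read 7.67, 7.72 and 7.66 with the control, 7.36, 7.41 and 7.39 with ERG siRNA 1 and 7.32, 7.26 and 7.52 with ERG siRNA 2. It fell by 0.31 ± 0.06 (adjusted p = 0.00224). Its second probe did not follow, at 0.17 ± 0.12, and with both probes averaged the change was -0.07 (adjusted p = 0.561). Under median scaling the value was -0.26 (adjusted p = 0.0684) and without scaling -0.28 (adjusted p = 0.0950).

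USP13 read 8.18, 8.31 and 8.21 with the control, 8.04, 8.11 and 7.92 with siRNA 1 and 7.77, 7.95 and 7.90 with siRNA 2. Its change was -0.29 ± 0.07 (adjusted p = 0.00789), and the call was lost without non-targeted replicate 2 (-0.25, adjusted p = 0.0514), under median scaling (-0.23, adjusted p = 0.137) and without scaling (-0.25, adjusted p = 0.164).

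USP11 read 6.71, 6.81 and 6.92 with the control, 7.11, 7.04 and 7.09 with siRNA 1 and 7.05, 7.11 and 7.18 with siRNA 2. It rose by 0.28 ± 0.07 (adjusted p = 0.00676). Without non-targeted replicate 1 the call was lost (0.23, adjusted p = 0.0535), as it was without scaling (0.31, adjusted p = 0.0685).

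USP30 rose by 0.28 ± 0.08 (adjusted p = 0.0205), from 5.53, 5.62 and 5.68 to 5.86, 5.94 and 6.01 with siRNA 1 and 5.96, 5.94 and 5.63 with siRNA 2. The third siRNA 2 array lay within the control range. The call was lost without non-targeted replicates 1 (0.24, adjusted p = 0.105) or 2 (0.28, adjusted p = 0.0590) and without scaling (0.32, adjusted p = 0.0654).

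**Figure D4:**
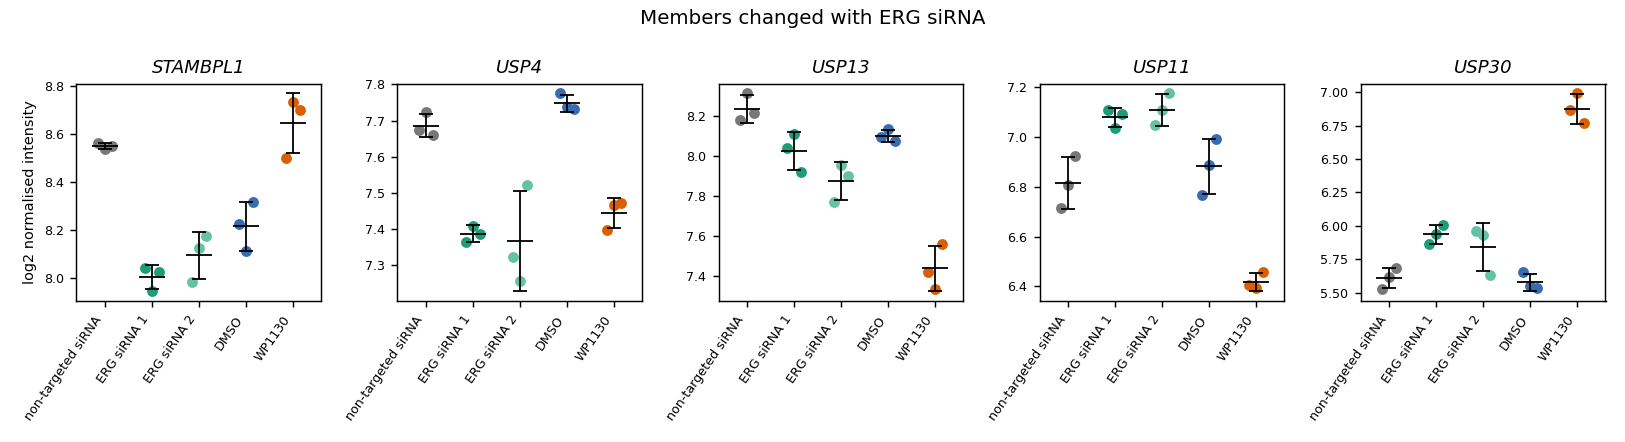
The 5 members called with ERG siRNA, with log2 normalised intensity on the vertical axis, points for arrays and bars for the mean ± SD of 3. STAMBPL1 reads 8.54 to 8.56 with the non-targeted siRNA and 7.95 to 8.17 with both ERG siRNAs.

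Taken singly, ERG siRNA 1 gave 4 called members (13% of all genes) and ERG siRNA 2 gave 6 (18.6% of all genes). USP11 rose with each, and STAMBPL1 and USP4 fell with each. USP30 was called with siRNA 1 at 0.33, and USP13 (-0.36), USP48 (-0.30) and OTUD6B (-0.24) with siRNA 2. With siRNA 1, the call of USP30 was lost without non-targeted replicates 1 or 2 or siRNA 1 replicates 2 or 3 (0.29 to 0.33), and that of USP11 without non-targeted replicates 1 or 2 or any siRNA 1 replicate (0.21 to 0.28). With siRNA 2, USP11 was lost without non-targeted replicate 1 (0.24) or siRNA 2 replicate 3 (0.26). USP48 was lost without non-targeted replicates 2 or 3 or siRNA 2 replicates 1 or 3 (-0.30 to -0.25), with the replicate block (adjusted p = 0.0560), with no filter (adjusted p = 0.0503), with probes averaged (-0.16), under median scaling (-0.25) and without scaling (-0.28). Under both scalings the siRNA 2 calls of USP4, USP13 and OTUD6B were lost too, OTUD6B also without any non-targeted replicate or siRNA 2 replicates 1 or 2 (-0.26 to -0.20). Between both siRNAs 0 members differed, where 0.118% of all genes did by limma, and 1 member had an unadjusted p under 0.05.

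For the targets, the mean ERG siRNA changes were -0.07 for UCHL5, 0.00 for USP5, 0.01 for USP9X, 0.03 for USP14 and 0.03 for UCHL1. Their 95% intervals lay between -0.23 and 0.21. Their median differed from that of the other members by -0.01, and over the 6 knockdown arrays by -0.05 to 0.08 (SD 0.05).

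The 5 members called with ERG siRNA were also called with WP1130, 100% of the first list and 13.2% of the second, where WP1130 called 63.3% of members and 59.0% of all genes, so nothing is read from the overlap. USP4, USP13 and USP30 moved the same way, by -0.30, -0.66 and 1.30 with WP1130. STAMBPL1 and USP11 moved opposite ways, with 0.43 and -0.46. The 2 contrasts use separate controls. The STAMBPL1 rise with WP1130 turned negative under median scaling and without scaling, as given above. Against the non-targeted siRNA arrays that rise was 0.09 and was not called (adjusted p = 0.328).

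**Figure D5:**
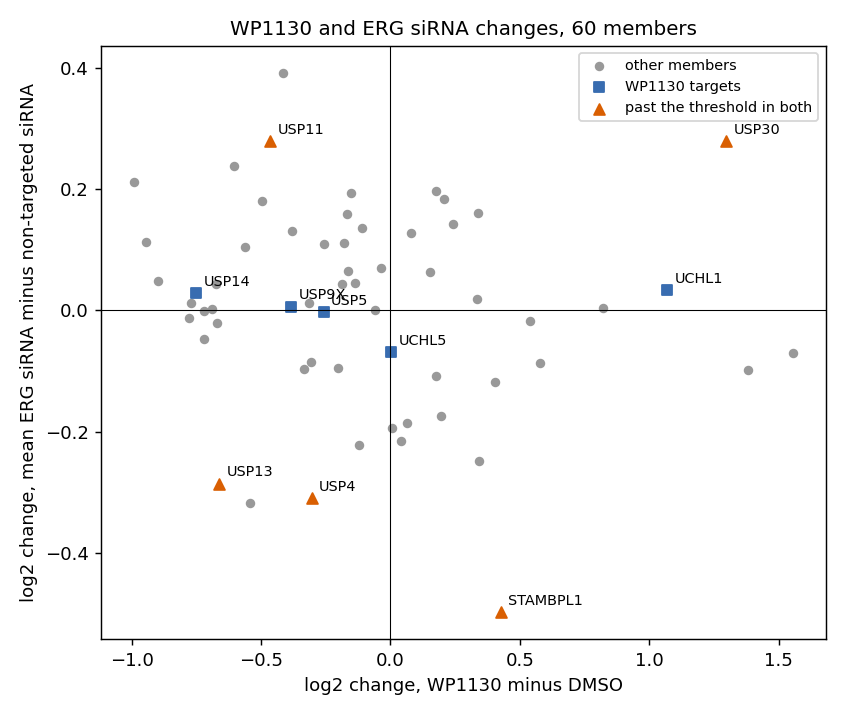
Change with WP1130 (horizontal, log2 against DMSO) and with ERG siRNA (vertical, log2 of both siRNAs against the non-targeted siRNA) for the 60 members. Squares are the 5 targets, all within 0.07 of 0 on the vertical axis, and triangles the 5 members past the threshold in both.

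The difference between the WP1130 effect and the ERG siRNA effect was tested directly. It was called for 32 members, 11 up and 21 down, where 50.7% of all genes were called, 19.8% up and 31% down. The largest were USP49 at 1.62, JOSD1 at 1.48 and UCHL1 at 1.04 on one side and OTUB2 at -1.20 and USP45 at -1.06 on the other. STAMBPL1 differed by 0.92 ± 0.11 (adjusted p = 3.70e-06) and USP11 by -0.74 ± 0.10. STAMBPL1 lost this call under median scaling (0.28, adjusted p = 0.0905) and without scaling (0.12, adjusted p = 0.535). Of the targets, UCHL1, USP14 (-0.78) and USP9X (-0.39, adjusted p = 0.0201) passed. UCHL1 did not pass without scaling (0.27, adjusted p = 0.170). USP9X did not pass without non-targeted replicate 3 (-0.30, adjusted p = 0.0640) or DMSO replicate 2 (-0.34, adjusted p = 0.0583). USP5 at -0.26 (adjusted p = 0.0805) and UCHL5 at 0.07 (adjusted p = 0.628) did not pass.

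The controls themselves were compared, since each arm rests on its own. Between DMSO and the non-targeted siRNA 4 members were higher and 5 lower, where 24.7% of all genes were called, 13.1% up and 11.6% down. Transfection, time and DMSO cannot be told apart here. USP49 was lower with DMSO by a wide margin, at -1.13 ± 0.13 (adjusted p = 2.04e-05). YOD1, a partner of p97, was at -0.47, USP1 at -0.38, STAMBPL1 at -0.33 and USP3 at -0.29. Higher with DMSO were BRCC3 at 0.43, UCHL3 at 0.36, OTUD6B-AS1 at 0.36 and OTUD6B at 0.23. Whether the probes tell OTUD6B from its antisense partner was not tested. OTUD6B was lost without any non-targeted replicate or DMSO replicates 2 or 3 (0.18 to 0.24), and OTUD6B-AS1 without non-targeted replicates 2 or 3 or DMSO replicates 2 or 3 (0.30 to 0.35). USP1, USP3 and STAMBPL1 were lost under median scaling (-0.29, -0.21 and -0.25) and without scaling (-0.33, -0.25 and -0.29), as was OTUD6B (0.31 and 0.27), and UCHL3 was lost without scaling (0.39, adjusted p = 0.0555). No target was called, with UCHL1 nearest at -0.20 (adjusted p = 0.0720). With the non-targeted siRNA as the control for WP1130, 29 of the 38 calls held, 8 of 13 rises and 21 of 25 falls. USP1 (-0.19), USP3 (-0.05) and BRCC3 (0.05) changed sign. USP5 was the target whose call was lost (-0.15).

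Over all 5 groups, WP1130 was the highest or the lowest group for 46 of 60 members, lowest for 29 and highest for 17. The median range of the group means was 0.46, and 0.20 over the other 4 groups. These values were not computed for all genes. As 59.0% of all genes were called with WP1130, they are not read as particular to the members. Among those 4 groups only USP49 (1.14), USP51 (0.72), STAMBPL1 (0.54) and USP48 (0.51) spanned more than 0.5.

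Deubiquitinases and relatives outside the name rule, deubiquitinase partners and the ubiquitin genes were read beside the members, from lists chosen with results of these data known. Of 16 other deubiquitinases and relatives measured, 4 rose, TNFAIP3 counted among them, and 4 fell with WP1130 (59.0% of all genes were called), with a median of 0.00. Not all of the 16 are active proteases. TNFAIP3, or A20, an ubiquitin editor that restrains NF-kB, was detected on the 3 WP1130 arrays and no DMSO array. It was at least 3.82-fold higher, which is a description, since it entered the data only through the group where it is high. PSMD14, the enzyme of the proteasome lid, read 9.74, 9.62 and 9.84 with DMSO and 10.39, 10.57 and 10.59 with WP1130, a rise of 0.78 ± 0.08 (adjusted p = 4.53e-07) that was 0.08 without scaling (adjusted p = 0.562). MINDY1 rose by 0.99, and OTULIN, which cuts linear chains, by 0.40, though OTULIN read -0.19 and -0.38 under the other scalings. MINDY4 (-0.72), MINDY2 (-0.42), EIF3F (-0.35) and OTULINL (-0.26) fell. The direction of OTULINL rested on the control: its WP1130 arrays read 7.37 to 7.45, above the non-targeted siRNA arrays at 6.84 to 7.11. For MINDY4 the DMSO arrays (6.25 to 6.71) lay above all siRNA arrays (6.03 to 6.17). For MINDY1 the DMSO arrays (6.92 to 7.28) lay below all siRNA arrays (7.29 to 7.78).

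Of 22 partner genes 5 rose and 8 fell (21.9% and 37.1% of all genes), with a median of -0.15. ABRAXAS1, the scaffold that holds BRCC3 in the BRCA1-A complex, rose by 1.75 ± 0.14 (adjusted p = 6.18e-08), from 8.34, 7.91 and 8.04 to 9.72, 9.97 and 9.87. As with USP49, its DMSO arrays lay below all 9 siRNA arrays, which read 8.97 to 9.50. Of further BRCC3 partners, BABAM2 (-0.49) and BABAM1 (-0.34) fell, and UIMC1 rose by 0.34 but read -0.18 and -0.37 under the other scalings. The BABAM2 fall rested on the control, since its WP1130 arrays read 7.105 to 7.33 and the non-targeted siRNA arrays 6.97 to 7.18. ADRM1, the proteasome receptor of UCHL5, rose by 0.66, and read 0.15 under median scaling and -0.05 without scaling. NFRKB, the INO80 subunit that inhibits UCHL5, fell by 0.97 ± 0.07, from 6.34, 6.27 and 6.35 to 5.34, 5.36 and 5.36. The other falls were ASXL1 (-0.77), WDR48 (-0.58), HCFC1 (-0.28), GMPS (-0.23) and ABRAXAS2 (-0.17). The other rises, STAM at 0.27 and ASXL2 at 0.24, turned negative under both other scalings.

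Of 7 ubiquitin and E1 genes 2 rose and 3 fell (21.9% and 37.1% of all genes). UBB, a polyubiquitin gene, rose by 0.35 ± 0.07 (adjusted p = 0.000759), from 14.07, 14.002 and 14.002 to 14.37, 14.40 and 14.36, but read 0.22 under median scaling (adjusted p = 0.0602) and 0.03 without scaling (adjusted p = 0.848). UBA7, the E1 of ISG15, was detected on no DMSO array and was at least 1.19-fold higher. It was detected on 5 arrays, 3 of them with WP1130, so without that group it would not have passed the filter, and its rise is a description. The NEDD8 E1 subunits UBA3 (-0.59) and NAE1 (-0.20) and the main ubiquitin E1, UBA1 (-0.25), fell. Of 7 SUMO and NEDD8 proteases 1 rose and 4 fell, beside the same shares of all genes. The rise was that of USPL1, a SUMO protease with a USP-like fold, from 7.46, 7.34 and 7.59 to 10.30, 10.25 and 10.24, or 2.80 ± 0.08 (adjusted p = 6.14e-14). No array of another group exceeded 7.59. The falls were SENP5 (-0.55), DESI2 (-0.52), DESI1 (-0.45) and SENP7 (-0.39).

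With ERG siRNA, 2 of the 16 other deubiquitinases and relatives rose (20.2% of all genes were called). OTULINL, a relative of OTULIN without protease activity, read 7.11, 6.84 and 7.10 with the control, 7.66, 7.71 and 7.88 with siRNA 1 and 7.93, 8.003 and 7.86 with siRNA 2. The DMSO arrays, at 7.65 to 7.70, also lay above the non-targeted arrays. It rose by 0.83 ± 0.07 (adjusted p = 1.12e-06), and OTULIN by 0.27. Of the partners TSG101 (0.26) and ENY2 (0.18) rose and GMPS (-0.23) and G3BP1 (-0.22) fell, 4 calls that were lost without scaling, of the ubiquitin and E1 genes UBA3 rose (0.25), and no SUMO or NEDD8 protease was called by limma, with 1 at an unadjusted p under 0.05.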

How the data were processed

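RNA of VCaP cells was hybridised to Illumina HumanHT-12 v4 arrays, per the labels' protocols. The deposited table used here holds, per the file headers, a raw intensity and a detection p-value for each probe. The submitters' processing notes name GenomeStudio. The authors' processed table holds an intensity per probe that had already been scaled to a common distribution, and served as an alternative. Arrays were grouped by the treatment in their labels.

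With limma 3.58.1 in R 4.3.3, neqc corrected the background (normexp, offset 16, negative controls inferred from detection p-values), applied quantile normalisation and took log2. Probes detected (p under 0.05) on 3 or more arrays were kept, and the probe with the highest mean stood for its gene; 17 members had several. One limma model of the 5 groups, with 10 residual degrees of freedom, covered 12744 genes, with two-sided moderated tests and Benjamini-Hochberg adjustment at 0.05. The labels do not say that replicates came from separate cultures, and p-values then reflect only how these samples vary, which may be technical. The number of arrays limits the precision. A gene undetected on all arrays of a group has a bound only: its mean in the brighter group over the dim group's level, where each dim array counts at its own value or its lowest detected signal, whichever is higher. In data simulated for WP1130 against DMSO (12744 genes, 200 changed), 72% of changes of 0.5 and 97% of changes of 1 were recovered, with 6.11% false calls. The simulation changed far fewer genes than the 59.0% called in the data and left out the normalisation. Its rates therefore describe that setting and not the WP1130 comparison itself.

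The members and gene lists were chosen with earlier results of these data known. The rule for named genes took the 5 targets, up to 8 called rises and 8 called falls of a comparison, members whose probes disagree and those called in both arms; other members were named by their change after their values were seen. Alternatives were other background correction and scaling, the authors' values, other filters, probe rules, a replicate block, other variance settings and leaving out each array. Which arrays shared a slide was not known here. Promoter windows came from RefSeq (GRCh38.p14), and 45 of 60 members had one. Figures used matplotlib 3.10.9.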

Additional observations from a re-analysis of the deposited data

How the results depend on the processing

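Scaling moved the results most. Without scaling between arrays, the called members numbered 2 for mean ERG siRNA (5 before), 1 for ERG siRNA 1 (4 before), 1 for ERG siRNA 2 (6 before) and 4 for DMSO against non-targeted siRNA (9 before). ERG siRNA 1 gave 2 under median scaling and 2 with the trend and robust options, and mean ERG siRNA gave 8 without background correction. The target median less that of the other members with WP1130 was -0.29 under median scaling and -0.29 without scaling. For WP1130 against DMSO the sign turned, under median scaling and without scaling, for ATXN3 (-0.16 and -0.35), STAMBPL1 (-0.16 and -0.35), UCHL5 (-0.59 and -0.78), USP1 (-0.40 and -0.59), USP16 (-0.018 and -0.21), USP3 (-0.37 and -0.56) and USP38 (-0.0095 and -0.20). It also turned for USP1 with its probes averaged (-0.65), and with the non-targeted siRNA arrays as the control, a setting added after seeing the data, for BRCC3 (0.049), USP1 (-0.19) and USP3 (-0.052). In the difference between the WP1130 and ERG siRNA effects it turned for UCHL5 (-0.58 and -0.75), USP1 (-0.27 and -0.44, and -0.42 with probes averaged), USP16 (-0.044 and -0.21) and USP38 (-0.12 without scaling). For mean ERG siRNA USP5 was 0.025 under median scaling. The cause of these turns was not tested.

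Leaving out each array in turn gave 32 to 40 called members for WP1130, 3 to 7 for mean ERG siRNA, 2 to 5 for ERG siRNA 1, 4 to 6 for ERG siRNA 2, 29 to 35 for the difference of effects and 7 to 9 for DMSO against non-targeted siRNA. The target median less that of the others ranged from -0.17 to -0.03 with WP1130 and from -0.069 to 0.067 with ERG siRNA. Values near 0 changed sign: UCHL5 with WP1130 from -0.083 to 0.10, and with mean ERG siRNA USP14 from -0.061 to 0.12, USP5 from -0.035 to 0.058 and USP9X from -0.087 to 0.063. The difference of effects for UCHL5 ranged from -0.015 to 0.17.

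Whether replicate numbers pair the samples was not settled. Of 30 same-numbered pairs 3 correlated over 0.1 (range -0.06 to 0.14), and 8 of 15 arrays were closest to their own number. With a replicate block the called members numbered 40 for WP1130, 5 for mean ERG siRNA, 4 and 5 for the single siRNAs, 0 between them, 32 for the difference and 9 for the controls. The probes' signal over background limits the 14 members not detected on all arrays, 5 of them on 3 to 9 arrays.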
